A study of Mus musculus with 3 samples.

Results

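The genes described are the hnRNP and SR splicing factors of the mouse: every annotated gene whose symbol begins with Hnrnp or Srsf and that has at least 1 transcript of the protein-coding type. Of 33 symbols with either prefix, 31 met the rule, 20 hnRNP genes and 11 SR genes, among 55536 annotated genes. Hnrnpa1l2-ps and Hnrnpa1l2-ps2 have no protein-coding transcript and were left out. The 31 genes carry 282 annotated transcripts, of which 135 are of the protein-coding type, 35 of the nonsense-mediated decay type, 75 of the retained-intron type and 37 of the processed-transcript type.

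The RNA came from bone-marrow-derived macrophages of strain C57BL/6J, primary cells grown out of marrow precursors in culture. They had been given 100 ng/ml Lipid A, the part of lipopolysaccharide that TLR4 senses, for 12 h, were then kept without it for 12 h, and were given 100 ng/ml again for 30 min. RNA of the cytosolic fraction, 1 µg per library, was depleted of ribosomal RNA and sequenced in 3 biological replicates that form 1 group. Sex and age are not given. Every replicate carries the same donor entry, so the SDs given below may hold technical spread alone. Untreated cells were not analysed here, and no value is set against an untreated level.

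hnRNP proteins coat nascent RNA and often repress splice sites, whereas SR proteins, named for a domain rich in serine and arginine, mostly bind exonic enhancers and favour splicing. Many genes of both families are known to limit their own output by including a poison exon, which carries a premature stop codon, or by splicing within the 3′ untranslated region, so that the mRNA is degraded by nonsense-mediated decay. Others keep introns, and such RNA is often held in the nucleus. The annotation's transcript types name these predicted fates and are not measurements of decay.

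Some of the exons that carry such stops are shown first, to show where such stops lie. Each stretch runs from the first base of the exon to the stop codon, which is in capitals, and none of these exons has a base in the coding transcript with the longest coding sequence of its gene. The stretches come from the annotated transcripts. Each mm10 position is that of the printed stretch, not of the whole exon, and the strand follows it. The Srsf3 stretch, at chr17:29039454-29039487 (+), opens exon 4 of 7 of Srsf3-201, an exon of 456 bases. The Srsf6 stretch, at chr2:162932815-162932966 (+), opens exon 3 of 7 of Srsf6-201, an exon of 268 bases. The Srsf7 stretch is in a 460-base exon of Srsf7-203 at chr17:80205054-80205081 (-), and that of Srsf9 is in a 358-base exon of Srsf9-205 at chr5:115328347-115328428 (+). Srsf11 has separate exons of this kind, of 109 bases in Srsf11-206 and of 117 bases in Srsf11-212. Their stretches lie at chr3:158024209-158024231 (-) and at chr3:158023310-158023359 (-). Among hnRNP genes, exon 6 of 13 of Hnrnpl-213 holds the stretch at chr7:28817335-28817393 (+), and exon 7 of 14 of Hnrnpll-203 that at chr17:80044976-80045022 (-).
Srsf3: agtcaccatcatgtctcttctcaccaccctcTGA
Srsf6: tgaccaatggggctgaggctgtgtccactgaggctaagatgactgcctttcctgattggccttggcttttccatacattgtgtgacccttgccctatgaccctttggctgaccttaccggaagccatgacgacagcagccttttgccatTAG
Srsf7: gtttcttcgtttgagtcagtcgcctTGA
Srsf9: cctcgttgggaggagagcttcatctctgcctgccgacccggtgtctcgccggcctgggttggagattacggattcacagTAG
Srsf11, exon of 109 bases: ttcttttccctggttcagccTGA
Srsf11, exon of 117 bases: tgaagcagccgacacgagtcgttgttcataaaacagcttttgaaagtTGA
Hnrnpl: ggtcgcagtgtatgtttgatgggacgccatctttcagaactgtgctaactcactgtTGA
Hnrnpll: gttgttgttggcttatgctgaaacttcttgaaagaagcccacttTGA

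The authors deposited 2 quantifications of each library, called the first and the second table below. Both give TPM, a level that divides by transcript length and sums to the same total in every library, and an estimated number of reads. Levels of genes come from the first, and shares of transcript types and exons from the second, unless the other is named. A difference taken within libraries counted as called if every library gave the same direction and the mean lay beyond 3 SD.

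Depth ranged from 28759407 to 54709008 expected counts in annotated genes, with replicate 1 the shallowest. All 8 macrophage markers were detected, at a summed 8470 to 9191 TPM. Of the neutrophil markers 2 of 5 were detected, S100a8 and S100a9, at a summed 6.77 to 9.89 TPM for the list, with Ly6g and Retnlg listed at 0. None of 5 T and B cell, 5 stromal or 4 erythroid markers reached 1 TPM, and each of these lists summed to at most 0.26 TPM in any library. Nuclear long noncoding RNAs differed between libraries: their summed level was 357 TPM in replicate 1, 220 TPM in replicate 2 and 721 TPM in replicate 3. In bulk RNA, fewer cells that express a gene and less of its RNA per cell cannot be told apart.

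Nearly the whole of both families was present. At a threshold of 1 TPM in every library, 30 of the 31 genes were detected, whereas 17.2% of all annotated genes and 41.4% of genes with a protein-coding transcript passed it. The exception was Srsf12, a relative of Srsf10, which had 0 counts in every library of the first table. A count of 0 allows up to 3 counts, or 0.104 CPM (counts per library scaled to a common total) in replicate 1, 0.0548 in replicate 2 and 0.0601 in replicate 3, for counting error only. Together the 31 genes took 0.346% to 0.385% of expected counts.

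The hnRNP genes made up most of the RNA of the 2 families. Their summed level was 893, 908 and 973 TPM in replicates 1, 2 and 3, against 210, 230 and 244 TPM for the SR genes, so hnRNP genes held 80.3% ± 0.606 (SD, n = 3) of the total. Gene by gene, the hnRNP median of log2(TPM + 1) exceeded the SR median by 1.18 ± 0.07 (SD, n = 3) and did so in 3 of 3 libraries, which is more than 3 SD. The two-sided exact sign-flip test gave p = 0.25, the smallest value that 3 libraries allow. The median of log2(TPM + 1) was 5.25 over the hnRNP genes, 4.07 over the SR genes and 3.21 over the 9076 detected genes with a protein-coding transcript.

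**Figure D1:**
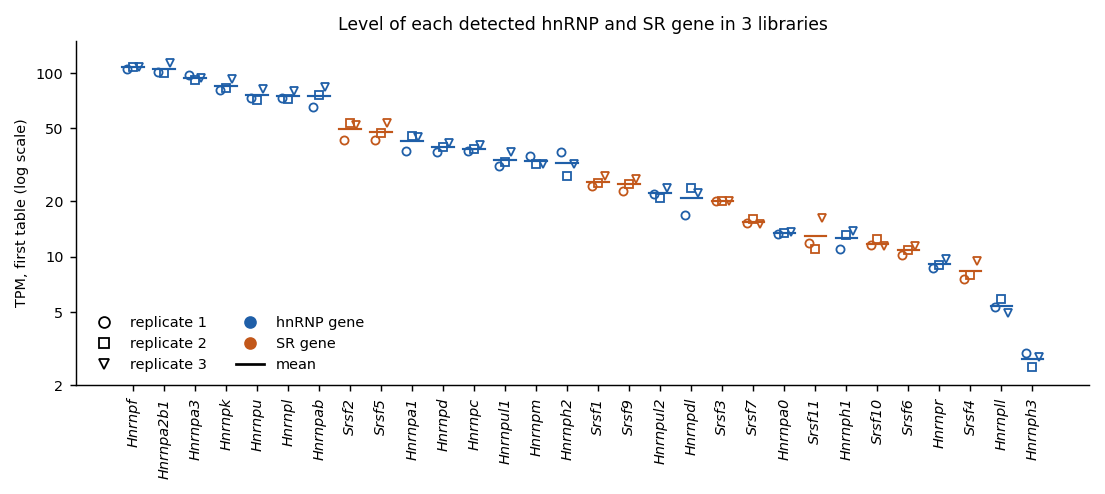
TPM of the first table on a log axis for each of the 30 detected genes, ordered by mean, with 1 symbol per library and a bar at the mean; hnRNP genes are blue and SR genes orange. The 7 highest genes are hnRNP genes, and the lowest, Hnrnph3, lies between 2.52 and 2.99 TPM.

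The A/B group is the largest hnRNP subfamily and held 33.9% ± 0.459 (SD, n = 3) of the TPM of all 31 genes. Hnrnpa2b1, whose protein binds UAG-containing RNA and also sorts RNA in the cytoplasm, was measured at 101 TPM in replicate 1, 101 TPM in replicate 2 and 114 TPM in replicate 3. Hnrnpa3, its close relative, stood at 97.1, 91.6 and 93.7 TPM. Hnrnpa1, the classical antagonist of SR proteins at splice sites, was lower at 37.6, 45.7 and 45.0 TPM, with replicate 1 below the other libraries. Hnrnpa2b1 exceeded Hnrnpa1 by 2.47-fold (log2 difference 1.30 ± 0.15, SD, n = 3), in every library and beyond 3 SD. Hnrnpa0, a gene without introns that binds AU-rich mRNA, was the lowest of the group at 13.3, 13.5 and 13.7 TPM.

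Relatives of the AU-rich element binding protein AUF1 formed a graded series. Hnrnpab averaged 74.9 ± 9.16 TPM (SD, n = 3), Hnrnpd, which encodes AUF1, 39.4 ± 2.14 TPM, and Hnrnpdl 21.01 ± 3.57 TPM. Hnrnpab exceeded Hnrnpd by 1.89-fold and Hnrnpd exceeded Hnrnpdl by 1.90-fold, each in 3 of 3 libraries and beyond 3 SD. Hnrnpd at chr5:99955935-99978938 (-) and Hnrnpdl at chr5:100033577-100039664 (-) are neighbours on chromosome 5.

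The F/H group, which binds runs of G, was led by Hnrnpf. This gene, at chr6:117900324-117925622 (+), had the highest mean TPM of all 31 genes in the first table, at 106 TPM in replicate 1, 109 TPM in replicate 2 and 108 TPM in replicate 3. It exceeded Hnrnph1 by 8.52-fold (log2 difference 3.09 ± 0.14, SD, n = 3). In replicate 3 Hnrnpa2b1 was higher, at 114 TPM, and in the second table Hnrnpk had the higher mean, 53.6 against 50.5 TPM. The X-linked Hnrnph2, at 37.2, 27.4 and 32.1 TPM, exceeded Hnrnph1 by 2.54-fold, while Hnrnph1 averaged 12.7 ± 1.41 TPM (SD, n = 3). Hnrnph3 was the lowest detected gene of both families at 2.99, 2.52 and 2.84 TPM. The order Hnrnpf, Hnrnph2, Hnrnph1, Hnrnph3 held in all 3 libraries.

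Among the other hnRNP genes, Hnrnpk, a poly(C)-binding protein of nucleus and cytoplasm, was measured at 81.1, 82.8 and 92.4 TPM. Hnrnpu, also known as scaffold attachment factor A, stood at 73.0, 71.7 and 81.8 TPM, and its relatives Hnrnpul1 and Hnrnpul2 averaged 33.7 ± 3.08 and 22.2 ± 1.41 TPM (SD, n = 3). Hnrnpl, which binds CA repeats, averaged 75.2 ± 4.18 TPM (SD, n = 3), whereas its paralog Hnrnpll, known for the splicing of the Cd45 transcript in lymphocytes, was measured at 5.33, 5.87 and 4.92 TPM. The 2 paralogs were thus 14.0-fold apart (log2 difference 3.81 ± 0.20, SD, n = 3), the widest gap among the 16 gene pairs compared. Hnrnpc, which binds runs of U, averaged 38.8 ± 1.44 TPM (SD, n = 3), and Hnrnpm, reported to restrain splicing of Il6 in macrophages, 33.2 ± 1.94 TPM. Hnrnpr, related to Syncrip, was among the 3 lowest hnRNP genes at 8.73, 8.99 and 9.75 TPM.

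Srsf2 and Srsf5 led the SR genes. Srsf2, the splicing factor also called SC35, was measured at 43.4 TPM in replicate 1, 53.8 TPM in replicate 2 and 52.3 TPM in replicate 3, and Srsf5 at 43.3, 47.3 and 53.3 TPM. The next was Srsf1, the founding member of the family, at 24.2, 25.3 and 27.4 TPM, followed by Srsf9, its closest relative, at 22.7, 24.9 and 26.6 TPM. The pair Srsf1 and Srsf9 differed by 0.05 ± 0.04 on the log2 scale (SD, n = 3), less than 3 SD, and was the only pair of 16 not called in the first table. In the second table it was called, at 1.24-fold. Srsf3, the smallest SR protein and an adaptor for mRNA export, stood at 20.0, 20.0 and 20.2 TPM and exceeded its relative Srsf7 by 1.30-fold, beyond 3 SD.

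At the lower end, Srsf4 was measured at 7.57, 7.92 and 9.47 TPM and Srsf6 at 10.3, 10.9 and 11.5 TPM. Srsf5 exceeded these relatives by 5.77-fold and 4.39-fold. Srsf7 averaged 15.4 ± 0.509 TPM, Srsf11 13.0 ± 2.82 TPM and Srsf10, a repressor when dephosphorylated, 11.8 ± 0.575 TPM (SD, n = 3). Along the order of all 30 detected genes, 16 of 29 neighbours kept their order in every library, and 6 differed by more than 3 SD. Hnrnpf and Hnrnpa2b1 at the top were not among these 6.

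Transcripts annotated as targets of nonsense-mediated decay made up a large part of this RNA. They held 12.4% of the TPM of the 31 genes in replicate 1, 14.4% in replicate 2 and 13.1% in replicate 3 of the second table, against 1.98%, 2.00% and 1.96% over all genes with a protein-coding transcript. All 3 values for the splicing factors lay above those for all genes. Hnrnpu supplied much of the sum, and without it the share was 8.30% ± 1.19 (SD, n = 3). In the first table the share was 13.0% ± 1.13 (SD, n = 3).

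The share varied widely from gene to gene. Of 19 genes that had such a transcript and at least 1 TPM, 10 carried at least 10% of their TPM in it in every library, whereas 23.5% of 2405 such genes did so over the whole annotation. The median share was 15.7% ± 2.19 (SD, n = 3) over the 19 genes and 3.25% ± 0.393 over the 2405. The 10 genes were Hnrnpu, Hnrnpdl, Srsf6, Hnrnpll, Srsf2, Hnrnpa1, Hnrnph3, Srsf3, Hnrnpd and Srsf4. At the other end, Srsf1, Srsf5, Srsf7 and Srsf9 stayed below 2% in every library. Srsf7-203 held 1.35% ± 0.102 and Srsf9-205 1.21% ± 0.365 of their gene's TPM (SD, n = 3).

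**Figure D2:**
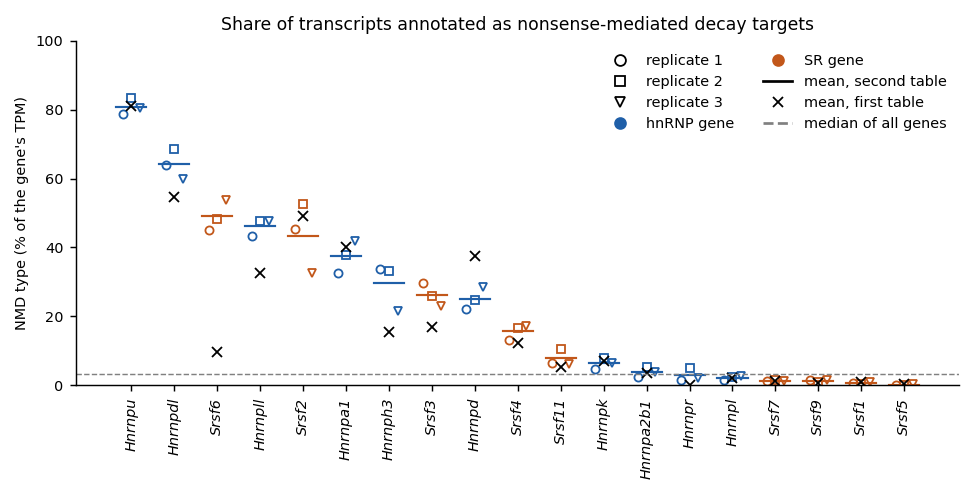
Share of each gene's TPM in transcripts of the nonsense-mediated decay (NMD) type, second table, for the 19 genes with such a transcript; symbols are libraries, bars their means, crosses the mean of the first table, and the dashed line the median over 2405 genes. Hnrnpu lies near 80% in both tables, while the cross of Srsf6 lies at 9.70%, far below its 3 libraries.

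Hnrnpu had the highest share: its transcript Hnrnpu-206 held 78.8% of the gene's TPM in replicate 1, 83.3% in replicate 2 and 80.1% in replicate 3, and 81.0% ± 1.47 (SD, n = 3) in the first table. In estimated counts it held 66.9% of the gene. The only coding transcript of the gene, Hnrnpu-201, is 7640 bases long and Hnrnpu-206 is 2844 bases long. Hnrnpu-206 lacks the stretch with the stop codon of Hnrnpu-201 and ends its reading frame further downstream, 183 bases before its last exon junction. It has 267 bases that are in no coding transcript of the gene. Exons of Cox20, on the opposite strand and at 20.4 TPM, overlap 804 exonic bases of Hnrnpu. The sources used here do not say whether counting used strand, and the part of the Cox20 reads in these values was not tested.

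For Hnrnpdl, 63.9%, 68.5% and 59.9% of the TPM in replicates 1, 2 and 3 was in such transcripts, and 54.5% ± 3.99 (SD, n = 3) in the first table. Most of it was Hnrnpdl-201, at 44.2% ± 8.49, which keeps the stop codon of the coding transcript but has a further junction 126 bases after it. Hnrnpdl-205, at 19.9% ± 4.40, has an earlier stop. Hnrnpa1 followed the first of these layouts: Hnrnpa1-203 held 30.7%, 36.4% and 38.6% in the 3 libraries, has the regular stop codon and a junction 90 bases downstream of it. In the first table it held 38.2% ± 5.10 (SD, n = 3). Hnrnpd-208, of the same layout with a junction 137 bases after the stop, held 23.3% ± 3.09, and 35.4% ± 6.23 in the first table.

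Srsf3-201, with the poison exon shown above, held 29.7%, 25.8% and 22.9% of the Srsf3 TPM in replicates 1, 2 and 3. In the first table it held 16.9% ± 2.02 (SD, n = 3). Its 456-base exon places the stop codon 34 bases into the exon and 548 bases before the last junction. Counted over all transcripts that include or skip this exon, inclusion was 32.1%, 28.1% and 26.3%, and 17.9% ± 2.12 in the first table. Both tables put the exon in a minority of Srsf3 transcripts.

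The 2 tables disagreed on the Srsf6 poison exon. Srsf6-201 held 45.0%, 48.3% and 53.9% of the gene's TPM in the second table and 9.70% ± 3.22 (SD, n = 3) in the first. Inclusion of its 268-base exon was accordingly 52.7% ± 5.49 and 10.3% ± 3.67. The transcript is 1666 bases long against 3527 bases for the coding Srsf6-203, and in estimated counts of the second table it held 30.3% of the gene. No single value can therefore be given for this exon from the deposited tables.

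Srsf2 had 45.3%, 52.5% and 32.5% of its TPM in Srsf2-204, a transcript of 620 bases that has no base of its own beside the coding transcripts. In the first table it held 49.1% ± 7.05 (SD, n = 3), and in estimated counts of the second 17.2%. Srsf2 also shares exonic bases with genes on the opposite strand, 288 with Mfsd11 at 44.4 TPM and 460 with Mettl23 at 3.70 TPM, and their part in the share was not tested. In all, 11 of the 31 genes share exonic bases with a gene on the opposite strand, and the level of that gene came nearest to that of the splicing factor for Srsf2 and for Hnrnph3, which shares 115 bases with Rufy2 at 1.84 TPM. Such overlap was not counted over all genes. Hnrnpll and Hnrnph3, below the 5 TPM set for naming and given here after their values were seen, had 46.1% ± 2.54 and 29.6% ± 6.88 (SD, n = 3). Hnrnpll-203, whose stop exon is printed above, was the most abundant Hnrnpll transcript in the second table, while in the first it held 32.5% ± 4.09 and the coding Hnrnpll-205 led. For the paralog, Hnrnpl-213 with the stop exon printed above held 2.15% ± 0.627 of Hnrnpl.

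SR and hnRNP genes differed in how these stops arise in the annotation. Among SR genes, 11 of the 15 NMD-type transcripts end upstream of the reference stop, 10 of them in an exon that the reference coding transcript lacks. Among hnRNP genes, 9 of 20 end upstream and 2 of these do so in such an exon, while 8 keep the reference stop and have a junction behind it. In the RNA, however, the families were not separated by their summed share: SR genes exceeded hnRNP genes by 2.06 ± 2.44 percentage points (SD, n = 3), less than 3 SD, with an exact two-sided sign-flip p of 0.50. The sign turned with the measure. In estimated counts the difference was -5.46 ± 1.12 points (SD, n = 3). Between medians over the 10 hnRNP and 9 SR genes with an NMD-type transcript it was -19.3 ± 1.36 points. Both were called in the opposite direction. Without Hnrnpu it was 8.48 ± 2.24 points, called with SR genes higher.

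A coding transcript was nevertheless the most abundant form of most genes. By mean TPM in the second table, a protein-coding transcript led in 24 of the 30 detected genes and an NMD-type transcript in 6. These 6 were Hnrnpu, Hnrnpdl, Srsf6, Hnrnpll, Srsf2 and Hnrnph3. For Hnrnpu, Hnrnpdl and Hnrnpll the lead held in every library. For Hnrnph3 the lead held in replicate 1 alone, and the coding Hnrnph3-201 was higher in replicates 2 and 3. Inclusion of the 268-base exon of Srsf6 was 49.4% and 49.8% in replicates 1 and 2, so the 1 transcript that skips it was higher there. In replicate 3 a transcript not of the NMD type was above Srsf2-204. In the first table the numbers were 26 and 4, the 4 being Hnrnpu, Hnrnpdl, Srsf2 and Hnrnpd. The leading transcript was the same in both tables for 24 of 30 genes. Leading types were not counted over all genes. Some genes were nearly uniform. Hnrnpa0-201 is the single transcript of its gene, Hnrnpul2-201 held 99.4% ± 0.480 and Srsf9-201 95.6% ± 0.695 of the gene's TPM (SD, n = 3). Others were split, with the leading coding transcript at 25.4% ± 2.89 for Hnrnpk and 26.7% ± 3.58 for Hnrnpa2b1.

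Retained-intron transcripts were a small share. They held 4.05% of the TPM of the 31 genes in replicate 1, 1.93% in replicate 2 and 4.67% in replicate 3, beside 3.82%, 3.37% and 4.15% over all genes with a protein-coding transcript. At least 10% in every library was reached by 2 of 22 genes with such a transcript, Srsf1 and Srsf11, and by 15.0% of 4909 genes over the annotation. SR genes had the higher share, 8.08% ± 2.84 against 2.41% ± 1.09 (SD, n = 3). The difference of 5.68 ± 1.75 points was positive in 3 of 3 libraries and beyond 3 SD, with an exact two-sided sign-flip p of 0.25. In estimated counts it was 6.26 ± 2.42 points, and the first table gave 4.62 ± 2.03 points, both positive in every library but within 3 SD.

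Srsf11, which encodes a U2AF-associated SR protein, had the highest share: 43.0% of its TPM in replicate 1, 22.1% in replicate 2 and 47.4% in replicate 3. The leading form, Srsf11-211, is a fragment of 521 bases, and it held 19.5% ± 8.30 of the TPM but 3.73% of the gene's estimated counts. Srsf1 had 19.1%, 13.5% and 13.5%, almost all of it in Srsf1-203, of 759 bases, which held 3.35% of the gene's estimated counts. Short annotated fragments thus weighed more in TPM, which divides by length, than in counts.

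For Hnrnpm the retained-intron share was 13.6%, 3.54% and 10.4%, and the first table gave 25.6% ± 5.23 (SD, n = 3). Srsf3 had 7.32%, 3.85% and 9.91%, Srsf6 7.54%, 2.88% and 8.80%, and Hnrnpa2b1 6.79%, 3.47% and 7.79% in replicates 1, 2 and 3. In each of these genes replicate 2 was the lowest. Across the 22 genes the share was lowest in replicate 2 for 20 and highest in replicate 3 for 17. Over all 4909 genes it was lowest in replicate 2 for 67.7%, ties included, and strictly so for 3082 genes. The number of all genes highest in replicate 3 was not counted. The median over all 4909 genes was 2.57%, 1.65% and 4.18% in replicates 1, 2 and 3. The nuclear noncoding RNAs Malat1 and Neat1 moved in the same order, with Malat1 at 304, 182 and 638 TPM and Neat1 at 19.9, 12.7 and 47.7 TPM in replicates 1, 2 and 3. Tug1 and Snhg1, of the same list, did not: both were highest in replicate 1, and Snhg1 stood at 5.93, 5.54 and 5.39 TPM. Their part in the share was not tested. Without replicate 2 the share of all 31 genes was 4.36%, and without replicate 3 it was 2.99%.

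**Figure D3:**
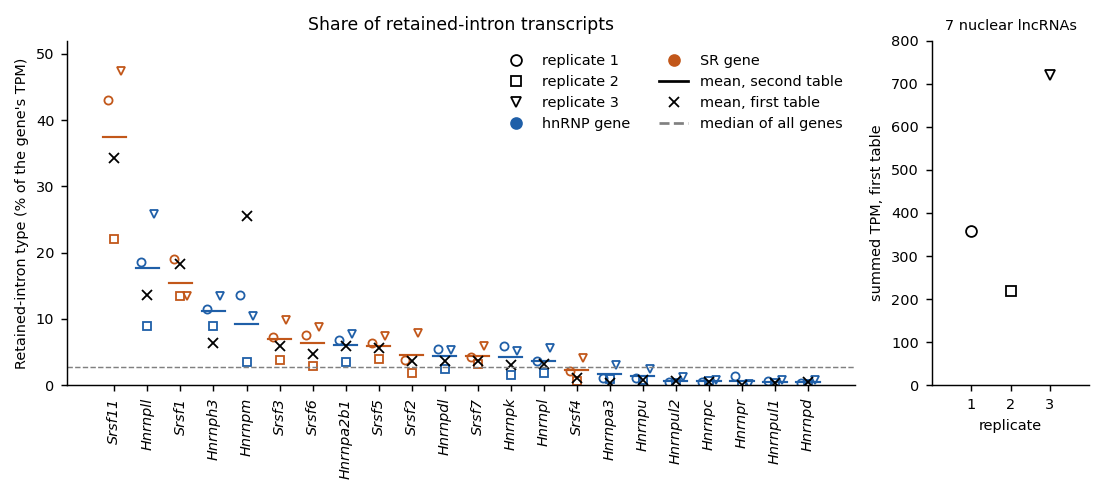
Left, share of each gene's TPM in retained-intron transcripts (second table) for 22 genes, with libraries as symbols, bars at the mean, crosses at the mean of the first table and a dashed line at the median over 4909 genes; right, summed TPM of 7 nuclear long noncoding RNAs in each library. Squares, for replicate 2, lie lowest in 20 of the 22 genes, and the right panel has its lowest value, 220 TPM, in the same library.

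Protein isoforms of the hnRNP genes differ by cassette exons, exons that are either included or skipped. With at least 2 TPM of transcripts that include or skip an exon, 37 internal exons of 19 genes were included between 5% and 95%. Of these, 12 lie within the coding sequence, all in 8 hnRNP genes, and 9 of the 12 have a length that is a multiple of 3. Among the 37, the 4 exons that hold the stop of an NMD-type transcript are all in SR genes. The stop exon of Hnrnpll-203, printed above, could not enter, because Hnrnpll stood at 1.86 TPM in replicate 3 of the second table. That of Hnrnpl-213 was not among the 37 either. Coding exons on which the values below turn are shown here, each whole and in the direction of the transcript, since they set apart named isoforms.
Hnrnpa2b1, exon of 36 bases: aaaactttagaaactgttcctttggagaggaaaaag
Hnrnpa2b1, exon of 120 bases: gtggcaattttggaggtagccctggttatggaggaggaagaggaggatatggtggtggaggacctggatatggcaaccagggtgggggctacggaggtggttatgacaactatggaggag
Hnrnpa3, exon of 81 bases: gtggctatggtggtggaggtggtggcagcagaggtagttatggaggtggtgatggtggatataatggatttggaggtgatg
Hnrnpd, exon of 57 bases: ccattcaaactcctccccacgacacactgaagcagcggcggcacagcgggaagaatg
Hnrnpd, exon of 147 bases: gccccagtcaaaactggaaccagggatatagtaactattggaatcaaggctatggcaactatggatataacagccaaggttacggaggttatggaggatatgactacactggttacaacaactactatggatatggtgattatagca
Hnrnpab, exon of 141 bases: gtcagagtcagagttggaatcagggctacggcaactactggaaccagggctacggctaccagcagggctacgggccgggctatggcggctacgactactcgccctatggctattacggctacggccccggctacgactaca

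The exon of 36 bases separates the A2 and B1 proteins of Hnrnpa2b1 and lies at chr6:51467391-51467426 (-). It was included at 12.1%, 11.7% and 11.7% in replicates 1, 2 and 3, and at 9.37% ± 0.280 (SD, n = 3) in the first table, so most Hnrnpa2b1 transcripts lacked it. The 120-base exon of the same gene, at chr6:51464428-51464547 (-), was included at 66.1%, 70.0% and 69.4%. It is rich in G, 44.2% of its bases against 31.9% over the coding sequence of the gene. The 159-base exon of Hnrnpa1, of which 93 of 159 aligned positions match the 120-base exon of Hnrnpa2b1, was included at 5.17% ± 1.06 (SD, n = 3), and at 2.58% ± 0.339 in the first table. Similar exons of these relatives thus stood far apart, at 68.5% ± 2.11 in Hnrnpa2b1 and at 5.17% in Hnrnpa1.

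The combination of the exons of 57 and 147 bases defines the AUF1 isoforms of Hnrnpd. The 57-base exon, at chr5:99976534-99976590 (-), was included at 50.3%, 48.3% and 51.1%, and the 147-base exon, at chr5:99963731-99963877 (-), at 47.5%, 50.4% and 45.8%. In the first table the values were 45.8% ± 2.15 and 41.8% ± 3.24 (SD, n = 3). Most of the TPM that included the 57-base exon was that of Hnrnpd-210, a coding transcript of 493 bases. Hnrnpd-210 held 34.1% of the gene's TPM in the second table but 9.76% of its estimated counts. The transcripts that inform the 57-base and the 147-base exon differ, so the values do not give the share of each isoform. Hnrnpab has an exon of 141 bases at chr11:51601750-51601890 (-), of which 90 of 151 alignment positions match the 147-base exon of Hnrnpd. It was included at 56.4%, 61.1% and 68.4%, and at 50.1% ± 7.32 in the first table.

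The coding exons of Hnrnpk, Hnrnph1 and Hnrnpm were mostly included. Inclusion was 87.0% ± 2.53 for a 72-base and 92.4% ± 2.11 for a 44-base exon of Hnrnpk, 92.9% ± 1.64 for a 90-base and 76.5% ± 2.12 for a 139-base exon of Hnrnph1, and 84.2% ± 3.83 for a 53-base exon of Hnrnpm (SD, n = 3). The only transcripts that skip the Hnrnph1 exons are of the processed-transcript type, Hnrnph1-218 for 90 bases and Hnrnph1-215 for 139 bases. The Hnrnph1 values therefore do not set coding isoforms apart. The 81-base exon of Hnrnpa3, at chr2:75662845-75662925 (+), had the widest gap in percentage points between tables among the coding exons, at 20.5% ± 4.07 and 55.4% ± 7.45. The Srsf11 stop exons of 117 and 109 bases were included at 11.1% ± 2.96 and 9.01% ± 1.19, and at 7.71% ± 2.24 and 3.65% ± 0.542 in the first table.

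**Figure D4:**
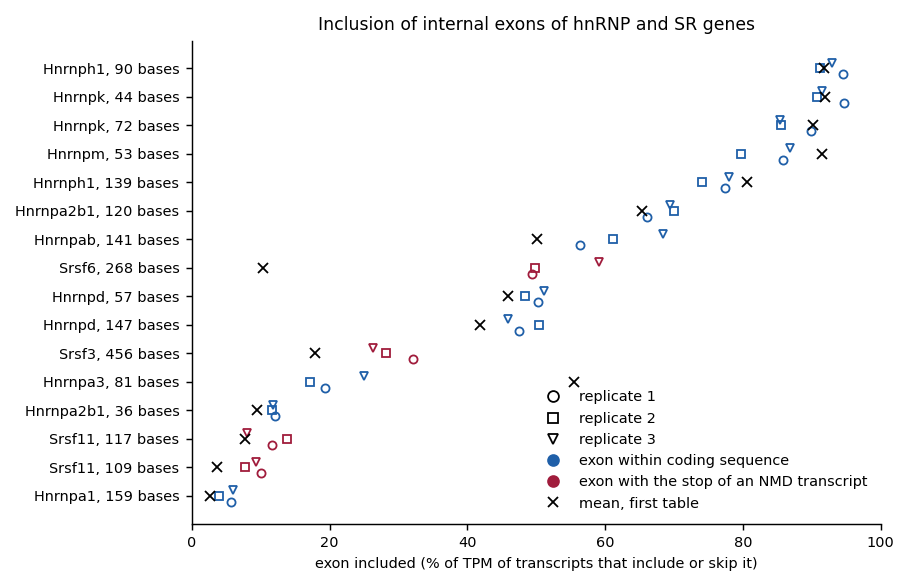
Inclusion of 12 exons within coding sequence (blue) and 4 exons that hold the stop of an NMD-type transcript (red), as percent of the TPM of transcripts that include or skip the exon; symbols are libraries of the second table and crosses the mean of the first. For the exons of Srsf6 (268 bases) and Hnrnpa3 (81 bases) the cross lies far from all 3 symbols.

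The tables also disagreed on the level of Hnrnpa3. TPM of the first table exceeded that of the second for genes in general, by 2.10, 1.90 and 2.92-fold in replicates 1, 2 and 3, and after this factor was removed 1 of 30 genes, Hnrnpa3, still lay at least 2-fold apart in every library, against 1.44% of 8465 genes. Hnrnpa3 stood at 17.9, 18.8 and 10.8 TPM in the second table, and its centred log2 ratio of first to second was 1.44 ± 0.12 (SD, n = 3). The annotation holds 21 near-identical copies of this gene, 1 of them of a coding type, with at least 95% identity over at least 80% of the shorter sequence. The second table gave 53.8% ± 2.72 of the estimated counts of gene and copies to the copies, the first 5.93% ± 0.924. Summed over gene and copies, the centred log2 ratio was 0.03.

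Hnrnpa1 has 8 such copies, which took 10.2%, 15.5% and 23.9% of its counts in the second table and 1.68% ± 0.158 (SD, n = 3) in the first. For Hnrnpk, with 2 copies, it was the first table that gave them more, 5.37% ± 0.824 against 0.0469% ± 0.00882, and its centred log2 ratio was -0.49 ± 0.08. Summed over gene and copies, the centred log2 ratio was -0.14 for Hnrnpa1, against 0.28 for the gene alone, and -0.36 for Hnrnpk. Hnrnpa3 exceeded Hnrnpa0 by 6.98-fold in the first table and by 2.50-fold in the second.

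**Figure D5:**
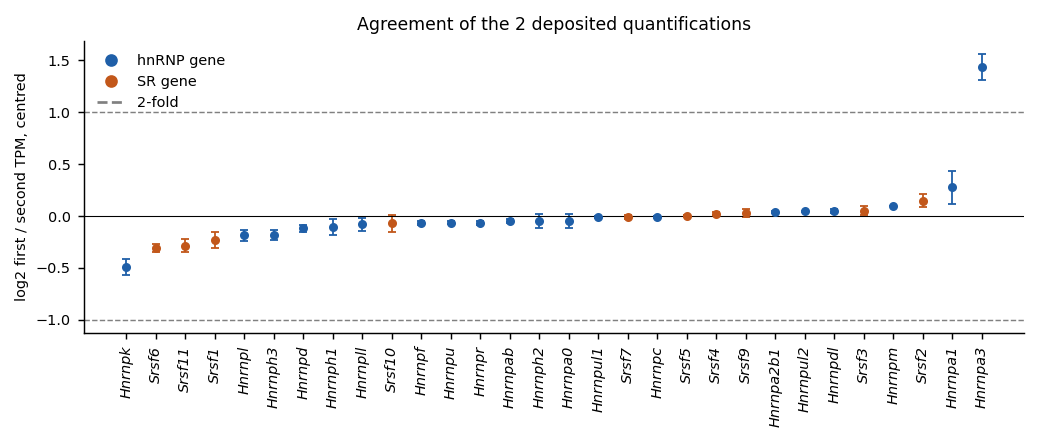
Log2 ratio of TPM in the first to the second table, centred on all genes, for 30 genes as mean with SD over 3 libraries; dashed lines mark 2-fold. Only Hnrnpa3 lies beyond a line, at 1.44, and Hnrnpk is the lowest at -0.49.

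Levels moved little between replicates, although by more than counting alone gives. A chi-square test on rounded counts, adjusted by Benjamini-Hochberg over 13410 genes, called 28 of the 30 genes, where 66.2% of all genes were called. The test calls smaller differences in genes with more counts, and genes of similar counts were not set beside the 30. Hnrnpm (adjusted p = 0.930) and Hnrnph3 (adjusted p = 0.670) were not called. Left without replicate 1, 2 or 3, the test called 19, 22 or 23 of them, and 53.2%, 44.3% or 44.2% of all genes tested. The biological coefficient of variation from edgeR had a median of 0.112 over the 30 genes, with a range of 0.10 to 0.146, and of 0.136 over 12738 genes.

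The widest spread of TPM was that of Srsf11, at 11.8, 11.1 and 16.3 TPM, a coefficient of variation of 21.6%. Replicate 3 was the high library, as it was for the retained-intron share of the gene. Hnrnpdl followed at 17.0%, with 17.0, 23.7 and 22.3 TPM, and replicate 1 low. Hnrnph2 had 15.1% and was highest in replicate 1. Hnrnpab, at 65.4, 75.8 and 83.6 TPM, and Srsf4 had 12.2% each. The steadiest in TPM were Srsf3 at 0.374%, Hnrnpf at 1.54% and Hnrnpa0 at 1.56%. Counts gave a different order in part. The biological coefficient of variation was 0.107 for Srsf11, below the median of 0.112, and 0.119 for Hnrnpf, above it. Hnrnpdl had the highest value, 0.146. Srsf3, at 0.101, and Hnrnpa0, with the lowest value, were steady by this measure too.

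On TMM-scaled counts, 25 of the 30 genes were lower in replicate 1 than the mean of the other libraries, with a median log2 difference of -0.12, and 25 were higher in replicate 2, with a median of 0.08. Over 13403 genes the medians were -0.01 and 0.04, with 6868 genes lower in replicate 1 and 7566, or 56.5%, higher in replicate 2. In replicate 3 the median of the 30 genes was 0.04, and it was -0.06 in the second table, so its sign depended on the table. None of the 30 genes differed by 2-fold or more in any library. Few genes did so in general, 471, 779 and 894 of the 13403 in replicates 1, 2 and 3.

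Genes that work with these factors were largely present as well. Of 16 further hnRNP proteins with other symbols 14 were detected, led by Pcbp2 at 175 ± 4.29 TPM, which binds runs of C, and Ptbp3 at 58.1 ± 1.26 TPM (SD, n = 3). Pcbp3, at 0.0800 TPM, was the lowest, and Pcbp4 was also under 1 TPM. All 16 SR-like regulators were detected, with Srrm2 at 41.7 ± 7.92 TPM and Son at 40.4 ± 6.01 TPM highest and Srek1 at 3.73 ± 1.02 TPM lowest. The medians of log2(TPM + 1) were 4.60 and 3.77 for these 2 lists, beside 4.73 for the 31 genes.

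Of 11 kinases, phosphatases, methyltransferases and import receptors that act on SR or hnRNP proteins, 10 were detected. Ppp1ca, a catalytic subunit of protein phosphatase 1, stood at 88.7 ± 4.75 TPM and the import receptor Tnpo1 at 15.3 ± 0.735 TPM (SD, n = 3), while Srpk3, known from muscle, had 0.0567 TPM. All 18 spliceosome core genes were detected, from Snrpg at 7.80 ± 0.166 TPM to Snrpc at 28.8 ± 2.20 and Snrpe at 32.4 ± 3.30 TPM. All 10 genes of the nonsense-mediated decay machinery were detected too, among them the kinase Smg1 at 12.0 ± 2.27 TPM (SD, n = 3), with Upf3b the lowest at 2.25 ± 0.086 TPM. Of 16 splicing regulators known from particular tissues 3 were detected, Mbnl1 at 117 ± 3.98, Mbnl2 at 46.2 ± 4.75 and Qk at 40.6 ± 2.75 TPM, and Rbfox1 and Esrp1 had 0 counts in every library.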

How the data were processed

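Total RNA-seq of 3 replicates of 1 group was analysed from deposited tables. Per the file headers, the first gene and transcript tables hold the authors' expected counts and TPM, and a second transcript table holds estimated counts and TPM. According to notes deposited beside the tables, they use mm10 and GENCODE M21; the first kind was made from reads aligned to the transcriptome, the second from reads and an index. The quantification tools and the use of strand were not given in the sources used here. TPM divides by length, so short transcripts weigh more in it than in counts.

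Levels use TPM of the first gene table, and shares by transcript type and exon inclusion use TPM of the second table. Differences were called when they had the same sign in 3 libraries and exceeded 3 SD. Expected counts were rounded, with TMM scaling and intercept-only dispersions after filterByExpr in edgeR 4.0.16 (R 4.3.3). The chi-square test took genes whose mean count was 10 or more, with an adjusted p threshold of 0.05. On simulated data it called 0% of 13410 genes with counting noise alone, and of 50 genes changed in replicate 3 74.0% at 1.2-fold and 92.0% at 1.5-fold. The changed genes were drawn from those with higher counts, so these percentages do not cover genes near the minimum count. Copies were found with blastn 2.17.0, at 500 bases or more. Python 3.11.15 ran scipy 1.17.1, numpy 2.4.6 and pandas 2.3.3. DESeq2 1.42.0 size factors were an alternative.

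Depth was 28759407, 54709008 and 49878183 expected counts. The members and lists were chosen with earlier results of these data known. All genes are named with their level, with values per library for the 5 highest and 3 lowest of each family, the 6 highest NMD and retained-intron shares among genes with at least 5 TPM in every library, the 5 highest and 3 lowest coefficients of variation and genes that differ between tables. In other lists the 2 highest and the lowest are named, except 1 gene that is not reported here.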

Additional observations from a re-analysis of the deposited data

How the results depend on the processing

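No paired analysis was possible because the study has 1 group here. Detection of 30 genes was the same or 28 (at 5 TPM) under each alternative run, and the hnRNP minus SR level stayed beyond 3 SD under all of its alternatives. The NMD share of the 31 genes was 8.30% without Hnrnpu, and the median over the 19 genes with an NMD-type transcript was 15.7%. The SR minus hnRNP NMD share turned to -5.46 points in estimated counts and to -19.3 points between such medians, both beyond 3 SD. It exceeded 3 SD at 8.48 points without Hnrnpu, and ranged from 1.08 to 3.43 points with a replicate left out, where it exceeded 3 SD without replicate 3. The SR minus hnRNP retained-intron share fell within 3 SD at 6.26 points in estimated counts and at 4.62 points in TPM of the first, and ranged from 4.95 to 6.65 points with a replicate left out, where it was within 3 SD without replicate 1 or 3. The cause of these changes was not tested. The median log2 ratio of replicate 3 was -0.059 in the second table and ranged from -0.023 to 0.12 with a replicate left out. Without removal of the general ratio between tables, 4 genes differed in place of 1: Srsf2, Hnrnpa1, Hnrnpa3 and Hnrnpm. Of the alternative values, 55 kept their direction and side of the threshold, or for values without a test moved by less than 1 SD or 1.5 times. Depth limits most the low genes Hnrnph3 (188 to 400 expected counts) and Srsf12.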
